A study of Mus musculus with 12 samples.

Results

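The 10 smooth muscle contractile genes Acta2, Tagln, Myh11, Myl9, Cnn1, Tpm1, Tpm2, Actg2, Lmod1 and Synpo2 were followed through mouse liver cells sorted by the fluorescence of a Sox9EGFP reporter. They were taken by symbol from the table of normalised counts, which lists 54227 gene symbols, and all 10 were found and passed the filter that left 16128 genes for testing (mean value of 10 or more across the 12 libraries). The mice were of the C57Bl/6 strain, all carried the Sox9EGFP transgene, and all were fasted for 16 h before the liver was digested to single cells. A cell sorter separated EGFP-negative cells (called neg here), the dimmest EGFP-positive cells (sub, from the labels' GFPsublow), the next gate (low) and the brightest gate (high), and 12000 cells per library went into lysis buffer. Each of these 4 populations has 3 libraries, 12 in all. The labels give no age or sex, do not describe the construct that drives EGFP, and do not say whether the libraries of a population came from separate mice. The 4 libraries of a replicate number share a suffix in their sample descriptions, whose meaning is not stated. The p-values measure only the spread between these libraries. The neg gate is defined by the absence of EGFP alone, and the labels name no further gate on it.

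Smooth muscle contracts when a calcium-dependent kinase phosphorylates the regulatory light chain of myosin and the myosin filament pulls on actin. The smooth muscle isoforms of actin, myosin, tropomyosin and calponin make up this apparatus, and in healthy liver they are best known from the walls of portal vessels and hepatic arteries, while stellate cells take up Acta2 on activation. Many of these genes are bound by serum response factor (SRF) at a short A/T-rich element, the CArG box, which SRF occupies together with myocardin-family coactivators.

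Sox9, the gene the reporter is named for, was listed at 0.691, 0 and 0 in the neg libraries, at 6653, 4237 and 3707 in sub, at 8838, 10313 and 17140 in low and at 11794, 13969 and 13497 in high. No neg library overlapped with an EGFP-positive one. Depth recovered from the values ranged from 8775387 to 15535588 reads per library. Zeros were common: a tested gene was above 0 in a median of 7 of the 12 libraries, and only 19.84% of tested genes were above 0 in every library. Genes that every cell uses were among them, since 4 of 12 housekeeping genes examined (Tbp, Hprt, Pgk1 and Tubb5) were listed at 0 in at least 1 library. A member at 0 is therefore described as listed at 0, and each library's value is given. Folds written as at least a value take zeros as counts and are not bounds if a zero is a failed estimate, which the table does not settle. Even for true counts they cover counting error only, not the spread between libraries. Of the 10 members, 1 (Tpm1) was above 0 in all 12 libraries, and the median standard error of a log2 fold change was 2.28 over the members and 2.35 over all tested genes.

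The windows before the transcription start are shown for the 3 members whose level differed between populations in the test across all genes (Acta2, Lmod1 and Synpo2) and for Myl9, the 1 member with an exact CArG box. The RefSeq promoter table (GRCm38.p6) held 7 of the 10 members; Tagln, Myh11 and Actg2 were not matched. Each run is the 250 bases before the RefSeq start, 5′ to 3′ on the gene's strand, and capitals mark matches to the CArG box with up to 1 mismatch. The windows are chr19:34255374-34255623 (minus strand) for Acta2, the smooth muscle alpha-actin gene; chr1:135324563-135324812 (plus strand) for Lmod1, which encodes leiomodin, an actin filament nucleator; chr3:123236150-123236399 (minus strand) for Synpo2, which encodes the actin-bundling protein myopodin; and chr2:156775214-156775463 (plus strand) for Myl9, the smooth muscle myosin regulatory light chain.
Acta2: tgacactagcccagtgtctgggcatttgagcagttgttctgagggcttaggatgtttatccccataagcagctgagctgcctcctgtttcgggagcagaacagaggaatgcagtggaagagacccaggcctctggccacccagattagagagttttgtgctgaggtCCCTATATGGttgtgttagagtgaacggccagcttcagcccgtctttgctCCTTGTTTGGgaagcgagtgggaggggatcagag
Lmod1: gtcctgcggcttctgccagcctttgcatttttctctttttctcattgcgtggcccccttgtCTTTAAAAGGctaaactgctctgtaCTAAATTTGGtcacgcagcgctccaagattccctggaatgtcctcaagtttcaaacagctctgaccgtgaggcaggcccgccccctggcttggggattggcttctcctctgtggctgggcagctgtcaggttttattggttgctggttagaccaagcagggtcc
Synpo2: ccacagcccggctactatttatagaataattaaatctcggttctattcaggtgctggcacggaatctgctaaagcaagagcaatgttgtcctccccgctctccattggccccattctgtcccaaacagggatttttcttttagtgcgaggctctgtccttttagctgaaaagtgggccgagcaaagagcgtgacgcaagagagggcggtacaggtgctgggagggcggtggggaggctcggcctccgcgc
Myl9: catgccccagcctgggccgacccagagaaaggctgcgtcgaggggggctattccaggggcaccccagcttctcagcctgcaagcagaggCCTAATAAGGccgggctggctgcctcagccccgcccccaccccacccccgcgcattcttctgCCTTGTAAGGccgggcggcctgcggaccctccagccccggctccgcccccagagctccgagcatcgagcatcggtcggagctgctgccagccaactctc

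Myl9 held the exact match, from position -161 to -152 counted back from the base before the start, and a second match with 1 mismatch. Acta2 held 2 matches with 1 mismatch, from -84 to -75 and from -34 to -25, and Lmod1 held 2, from -189 to -180 and from -164 to -155. Synpo2 held none. Of the 7 matched members 1 held an exact box and 4 (Acta2, Lmod1, Myl9 and Tpm1) held one with up to 1 mismatch, while of all 32851 promoter windows of the same length 1.467% and 18.62% did. The box reads the same on both strands, and a window without a match says only that these letters are not in it.

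Across the 4 populations, 3 of the 10 members differed in the limma F test (log2(normalised count + 1), adjusted over all tested genes): Synpo2 with an adjusted p of 0.01, Lmod1 with 0.0166 and Acta2 with 0.0269. Over all tested genes 4.23% passed this test. All 3 were at 241.6 or more in every neg and sub library, and listed at 26.7 or less in every low and high library, with the exception of Lmod1 in high 2 (166.8). In bulk libraries such as these, fewer cells of a type and less RNA per cell cannot be told apart. Lmod1 and Synpo2 passed in all 23 alternatives of the F test. Acta2 did not pass without high 1, high 2, high 3, neg 1, neg 2, neg 3 or sub 2, where its adjusted p in limma ran from 0.0517 to 0.0617. Nor did Acta2 pass in limma on 10 libraries (0.0844). Myh11 missed the threshold with an adjusted p of 0.0714 and passed without low 2 (0.0459), one of the libraries that list it at 0; it also passed with the replicate number as a block (0.0163) and with a pseudocount of 5 (0.00845). On 10 libraries, which leave out high 2, another library that lists it at 0, Myh11 passed in edgeR (4 members, with 4.46% of genes passing) and not in DESeq2 or limma.

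**Figure D1:**
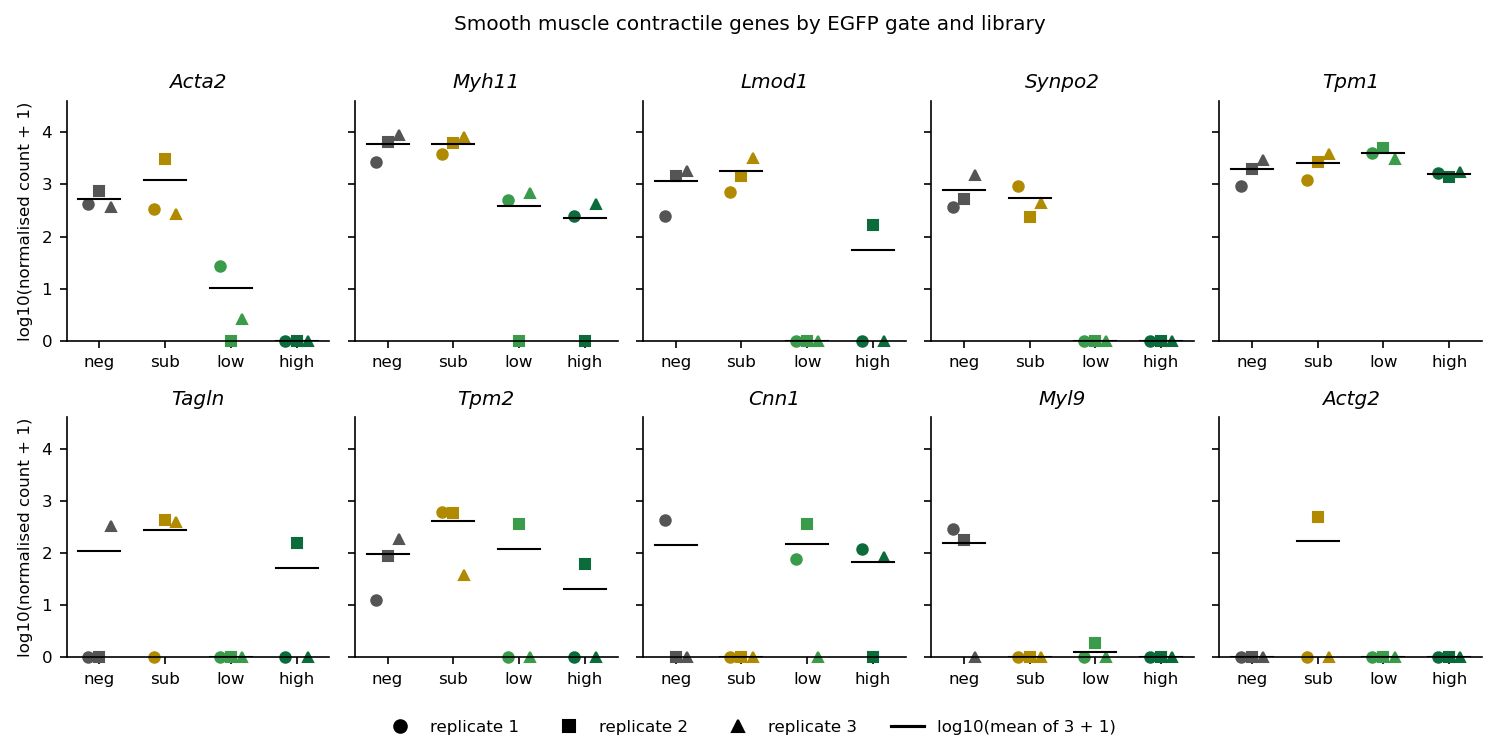
Each panel plots log10(normalised count + 1) of 1 member, with 1 point per library, point shape for the replicate number, colour for the population and a line at the mean of the 3 libraries. Acta2, Myh11, Lmod1 and Synpo2 are high in all 6 neg and sub libraries, Tpm1 is above 0 in all 12, and the other 5 members are listed at 0 in at least 4 libraries each.

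Myh11 encodes the smooth muscle myosin heavy chain, the motor of the contractile filament (chr16:14194535-14291372, minus strand, mm10). Its normalised counts were 2644, 6518 and 8981 in neg, 3798, 6124 and 8046 in sub, 504.7, 0 and 676.4 in low and 244.9, 0 and 421.4 in high. Every neg and sub library stood above every low and high library, and neg and sub overlapped. The means of neg and sub were 6048 ± 3195 and 5989 ± 2127 (SD, n = 3 each). The mean of low was 15.4-fold below that of neg and 15.2-fold below that of sub, and the mean of high was 27.2-fold and 27.0-fold below. None of these differences passed in limma with all 12 libraries and no block: the log2 fold changes were -6.26 ± 2.15 (SE) for low against neg with an adjusted p of 0.117, and -6.84 ± 2.15 for high against neg with an adjusted p of 0.0789. High against neg passed without low 2 (adjusted p 0.022, log2 fold change -6.84), and both comparisons with neg passed with the replicate number as a block (0.0436 for low and 0.0272 for high) and with a pseudocount of 5 (0.034 and 0.0179), as did high against sub with a pseudocount of 5 (0.0422). On 10 libraries, without high 2 and so without 1 of the Myh11 zeros, edgeR called all 4 comparisons of low or high with neg or sub (adjusted p from 9.02e-06 to 0.00165), DESeq2 called only low against neg (0.0438) and limma called none. Both zeros were in library number 2 of their population, and low 1, low 3, high 1 and high 3 held between 244.9 and 676.4.

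Acta2, whose product is the actin of the contractile filament (chr19:34241090-34255590, minus strand), was at 422.8, 742.3 and 375.7 in neg and at 336.8, 3104 and 272.3 in sub. It was listed at 26.7, 0 and 1.64 in low and at 0 in all 3 high libraries. Sub 2 held the highest value, several times that of any other library, and neg and sub overlapped. The mean of low was 54.3-fold below that of neg and 130.9-fold below that of sub, and high was at least 190.7-fold and at least 459.6-fold below them, with 3 reads per library as the floor. Without sub 2 the sub mean was 304.5, and low was 32.2-fold and high at least 113.1-fold below it. In limma only high against neg passed, with a log2 fold change of -8.94 ± 2.31 (SE) and an adjusted p of 0.0299. That call did not hold without high 1, high 2, high 3, neg 1, neg 2 or neg 3 (adjusted p from 0.064 to 0.0792), nor in limma on 10 libraries (0.0796). High against sub had a log2 fold change of -9.36 and an adjusted p of 0.0615, and passed without low 2 (0.0443), with a minimum mean of 100 (0.0425), without the variance trend (0.0063), and on 10 libraries in edgeR (0.0293) and in DESeq2 (1.61e-06). Low against sub passed without the variance trend (0.0322) and in DESeq2 (0.000818), as did low against neg (0.0219 and 0.00648).

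Lmod1 (chr1:135324807-135368065, plus strand) was at 245.3, 1455 and 1832 in neg and at 723.0, 1432 and 3164 in sub. It was listed at 0 in all 3 low libraries and at 0, 166.8 and 0 in high. The 6 neg and sub libraries stood above the 6 others, with high 2 nearest to them. Low was at least 487.9-fold below neg and at least 734.6-fold below sub, and the mean of high was 21.2-fold below neg and 31.9-fold below sub. Lmod1 fell from neg to low with a log2 fold change of -9.76 ± 2.39 (SE, limma adjusted p 0.0217) and from sub to low with -10.54 ± 2.39 (adjusted p 0.0464). The first call was lost without low 2 (0.051), low 3 (0.0534), neg 2 (0.074) or neg 3 (0.0805). The second was lost without any single library of neg, sub or low (0.0639 to 0.151) and held without each high library. It was also lost with the replicate number as a block (0.0585), no filter (0.0548), a pseudocount of 0.5 (0.055), quantile normalisation (0.0519), limma on 10 libraries (0.138) and a fit of only low and sub (0.177). High against neg did not pass (adjusted p 0.0936) and did without high 2 (0.0373), the bright library that holds Lmod1 reads. On 10 libraries, which also leave out high 2, it passed in limma (0.0497), edgeR (0.00708) and DESeq2 (4.71e-08). High against sub did not pass in limma with all libraries, and passed on 10 libraries in edgeR (0.0171) and DESeq2 (3.52e-07).

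Synpo2 (chr3:123076519-123236149, minus strand) was at 364.8, 525.9 and 1488 in neg and at 929.3, 241.6 and 441.9 in sub. It was listed at 0 in all 6 low and high libraries. Neg and sub overlapped, with means of 793.0 ± 607.5 and 537.6 ± 353.7 (SD, n = 3 each). Low was at least 328.5-fold below neg and at least 222.7-fold below sub, and high was at least 294.5-fold and at least 199.6-fold below. Synpo2 fell with a log2 fold change of -9.37 ± 2.24 (SE) both from neg to low (limma adjusted p 0.0192) and from neg to high (0.0185). Without neg 3, which holds the highest Synpo2 value, neither passed (0.0571 and 0.0568). High against neg was also lost without high 1 (0.0578) or high 2 (0.0541), and on 10 libraries in edgeR (0.109) and limma (0.0602). Low against neg was also lost in a fit of only low and neg (0.0648). Against sub the log2 fold change of -8.86 did not pass in low (0.0786) or in high (0.0699). Both passed with a minimum mean of 100 (0.0482 and 0.0425), without the variance trend (0.00111 and 0.00117) and in DESeq2 on 10 libraries (2.25e-07 and 9.15e-06).

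These 4 genes are the members for which every neg and sub library exceeded every low and high library. Of all tested genes, 2.31% (372 genes) had that separation, which joins pairs of populations in a way chosen after the values were seen. The lowest neg or sub library and the highest low or high library were 2644 and 676.4 for Myh11, 272.3 and 26.7 for Acta2, 245.3 and 166.8 for Lmod1, and 241.6 and 0 for Synpo2. For Myh11, Lmod1 and Tpm1, library number 1 was the lowest and library number 3 the highest within both neg and sub. Acta2 and Synpo2 did not share that order.

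Tpm1 and Tpm2 encode tropomyosins, which lie along the actin filament, and both genes also give isoforms outside muscle. Tpm1 (chr9:67022590-67049406, minus strand), with 21 annotated transcripts whose reads the table does not separate, was at 917.5, 2015 and 2965 in neg, 1198, 2681 and 3907 in sub, 4080, 5046 and 3023 in low and 1660, 1398 and 1768 in high. Its highest population mean was in low: all 3 low libraries stood above all 3 neg and all 3 high libraries, and low and sub overlapped. The mean in low (4050 ± 1012) was 2.06-fold above neg and 2.52-fold above high. Neither passed: the log2 fold changes were 1.17 ± 0.56 (SE, limma adjusted p 0.319) for low against neg and -1.31 ± 0.56 (unadjusted p 0.0319, adjusted p 1) for high against low. Tpm2 (chr4:43514711-43523765, minus strand) was at 11.7, 85.6 and 188.3 in neg and at 609.5, 589.6 and 36.9 in sub. It was listed at 0, 363.6 and 0 in low and at 0, 59.6 and 0 in high, so that in both bright gates only library number 2 held reads. Its log2 fold changes ran from -5.93 (high against sub, adjusted p 0.488) to 2.01 (sub against neg, 0.845), and none passed. DESeq2 on 10 libraries called Tpm2 lower in high than in low (adjusted p 2.72e-10), neg (2.01e-10) and sub (9.29e-11); those libraries leave out high 2, the high library with Tpm2 reads. Tpm1 made up between 66.3% and 100% of the summed Tpm1 and Tpm2 counts of a library.

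The other 4 members were sparse. Tagln, which encodes the actin-associated protein transgelin (chr9:45929619-45936058, minus strand), was at 0, 0 and 327.4 in neg, 0, 425.9 and 394.0 in sub and 0, 154.6 and 0 in high, and was listed at 0 throughout low. Myl9 (chr2:156775420-156781658, plus strand) was at 288.8, 176.1 and 0 in neg and was otherwise listed at 0 in every library except low 2, at 0.85, which is 1 read. Each was present in some neg libraries and missing from others, so neither separated the populations.

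Cnn1, the calponin gene whose product damps actin-activated myosin (chr9:22099216-22109630, plus strand), was at 421.5, 0 and 0 in neg, at 0 in all of sub, at 76.4, 362.8 and 0 in low and at 120.3, 0 and 82.5 in high. It was thus the member seen in more bright libraries than in neg and sub, 4 against 1. Actg2, the enteric smooth muscle actin (chr6:83512905-83536265, minus strand), was listed at 0 in every library but sub 2, at 501.5. Sub 2 is also the library with the highest Acta2 value. None of the 4 passed in any limma comparison with all libraries (adjusted p from 0.193 to 1). DESeq2 on 10 libraries called Cnn1 lower in sub than in neg (3.59e-07), low (2.27e-07) and high (4.55e-06), and Actg2 higher in sub than in neg (6.22e-07), low (1.2e-08) and high (5.96e-07); for Actg2 these rest on sub 2. Myl9 passed without neg 3, where it is listed at 0, in sub, low and high against neg (adjusted p 0.0499, 0.0343 and 0.0267).

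Read assignment could touch some of these values. Tagln overlaps Pcsk7 and the antisense gene Gm48529 on the opposite strand, which reached 1210 and 444.2 in some library; the library kit keeps strand, and whether counting used it is not given in the sources used here. The share of a member's 31-base words found in other genes was at most 1.386% (Acta2), with 1.208% for Actg2 and 0.905% for Myh11, and 0 for Tagln, Cnn1 and Lmod1.

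Divided by the length of the annotated exons, Myh11 had the highest mean of the members in neg and in sub, at 795.9 and 788.2 normalised counts per kb, though in sub 2 Acta2 (1413) stood above Myh11 (805.9). By the same measure, Tpm1 was the most abundant in low and in high, at 624.4 and 248.0. In neg the order after Myh11 was Tpm1 (303.2), Lmod1 (298.3), Acta2 (233.9), Myl9 (133.4), Synpo2 (60.6), Tagln (54.9), Cnn1 (51.3), Tpm2 (32.7) and Actg2 (0). In sub it was Acta2 (563.6), Lmod1 (449.1), Tpm1 (400.2), Tpm2 (141.6), Tagln (137.5), Actg2 (107.4) and Synpo2 (41.1), with Myl9 and Cnn1 at 0. Without sub 2 the sub mean of Acta2 was 138.7, below Lmod1 (492.3) and Tpm1 (393.6). Tpm1, Lmod1 and Acta2 overlapped between libraries in both populations, so their order is not larger than the spread. In high only Tpm1, Myh11 (29.2), Tagln (25.9), Cnn1 (24.7), Lmod1 (14.1) and Tpm2 (6.83) were above 0.

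The 6 pairwise comparisons ask how each gate differs from the others. The members' limma calls are set here beside the share of all tested genes called in the same direction. Where no member passed, the share is for either direction. For edgeR and DESeq2 only numbers of calls in either direction are given, without a share. Sub against neg compares the dimmest positive gate with negative cells. No member passed in limma, against 1.19% of genes in either direction, and 1 had an unadjusted p under 0.05. On 10 libraries edgeR called 0 members, and DESeq2 called 2 members among 1652 genes in all. The median log2 fold change of the members was 0.41, with 0 over all tested genes. Myh11 differed by 0.09, Acta2 by 0.42, Lmod1 by 0.77 and Synpo2 by -0.51, with SEs of 2.15 to 2.39, so differences of several fold in either direction lie within the error. In low against sub, 1 member (Lmod1) was lower and none higher, against 0.614% of genes lower, and the members' median was -5.43 with 0 over all genes.

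In low against neg, 2 members (Lmod1 and Synpo2) were lower, against 2.15% of genes, with a median of -3.99 over the members and 0 over all genes. In high against neg, 2 (Acta2 and Synpo2) were lower, against 2.25% of genes, with medians of -4.57 and 0.13. These comparisons share the neg libraries. In high against sub no member passed in limma, against 0.986% of genes in either direction, and 4 had an unadjusted p under 0.05. On 10 libraries edgeR called 3 members among 269 genes in all, and DESeq2 called 6 among 1506. The limma medians over the members and over all genes were -4.64 and 0.20. In high against low no member and no gene passed in limma (0% of genes; 684 genes and, among the members, Tpm1 had an unadjusted p under 0.05, and edgeR and DESeq2 on 10 libraries called 74 and 678 genes).

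**Figure D2:**
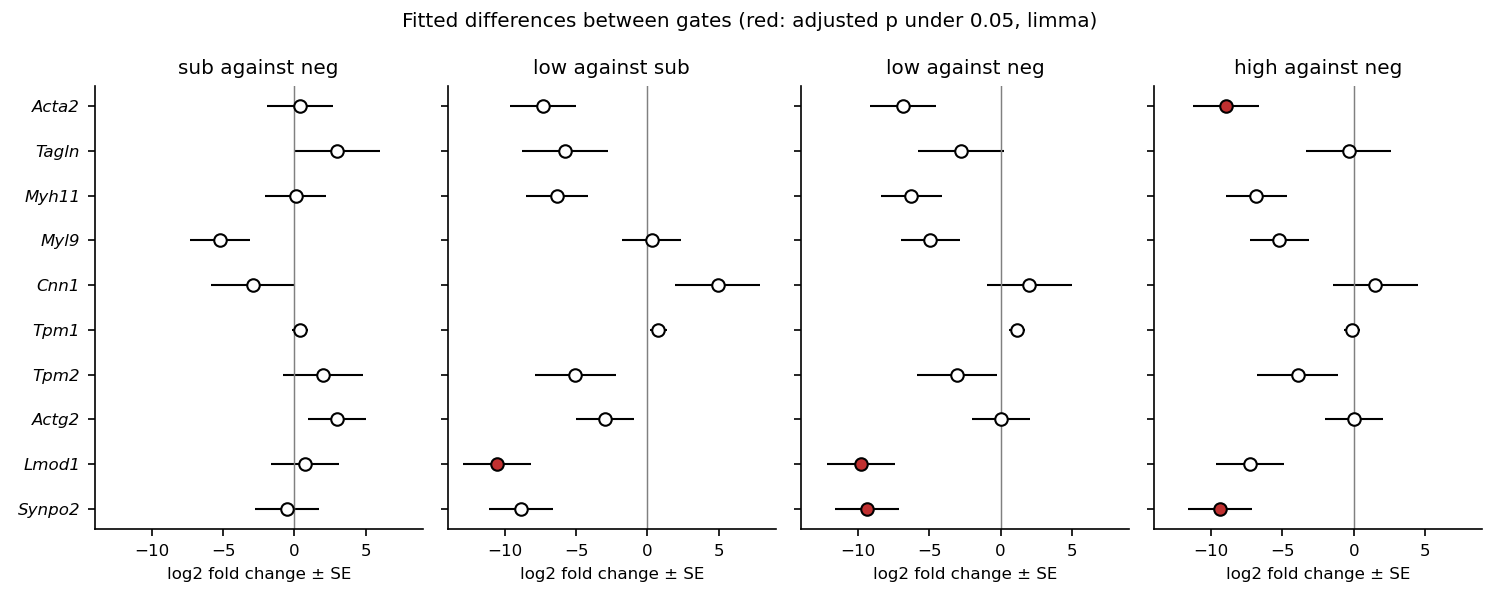
Limma log2 fold change of each of the 10 members in 4 of the 6 pairwise comparisons, with a bar of 1 standard error on each side and red points for an adjusted p under 0.05. The 5 red points belong to Lmod1, Synpo2 and Acta2 and all lie below 0.

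Of 24 listed regulators, receptors and channels, 22 were tested. In low against neg 1 of them was higher (2.55% of all genes were) and 2 were lower (2.15% of all genes were). The list's median log2 fold change was -0.05. Kcnma1, the pore of the calcium-activated potassium channel that relaxes smooth muscle, was listed at 0 in all 3 neg libraries, at 585.9, 1057 and 757.1 in sub, at 1549, 4688 and 2670 in low and at 3835, 3623 and 6009 in high. No neg library overlapped with the rest, and Kcnma1 was at least 277.8-fold higher in sub, 1031-fold in low and 1559-fold in high (limma adjusted p 0.00014, 8.92e-06 and 3.65e-06). The first was lost in a fit of only neg and sub (0.532). Kcnma1 ran opposite to Acta2, Lmod1 and Synpo2 in the 2 bright gates.

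Ednrb, an endothelin receptor, was at 1007, 1734 and 423.0 in neg and at 3548, 2065 and 4071 in sub, and was listed at 0 in all 6 low and high libraries. Its log2 fold change was -9.82 from neg to low and to high (adjusted p 0.0096 and 0.00948) and -11.60 from sub to each (0.0138 and 0.0101); low against sub was lost without sub 2 or sub 3, with a highest adjusted p over its alternatives of 0.0825. High against sub was lost in limma on 10 libraries (0.127), and low against neg in a fit of only these 2 populations (0.053). Prkg1, the cyclic GMP-dependent kinase that opposes contraction, was at 1623, 1567 and 1049 in neg, 221.1, 201.5 and 296.2 in sub, 0, 1.70 and 0 in low and 34.6, 0 and 0 in high. Its log2 fold change was -9.96 from neg to low (adjusted p 0.015) and -8.72 from neg to high (0.0337), the latter lost without high 2, high 3 or any neg library (at most 0.424 over its alternatives). Every sub library stood above every neg library for Ednrb and below for Prkg1, and both were at or near 0 in the bright gates.

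Of 16 accessory genes of the muscle cytoskeleton, 15 were tested. Des, the muscle intermediate filament desmin, was at 915.5, 1180 and 1228 in neg, 1410, 1962 and 2537 in sub, 0, 0 and 0.822 in low and 19.9, 0 and 0 in high. Its libraries fell into the same pairs of populations as Myh11, and its log2 fold change from neg to low was -9.81 (adjusted p 0.0104), a call that held in all 24 alternatives (at most 0.0476). Itga8, an integrin subunit, was at 2111, 1947 and 2108 in neg, 478.3, 199.2 and 1349 in sub, 82.4, 0 and 0 in low and 0 throughout high, with a log2 fold change of -11.01 from neg to high (adjusted p 0.00772, at most 0.0421 over its alternatives). In sub against neg 1 accessory gene was higher (1.04% of all genes were): Pdlim3, listed at 0 in every library outside sub and at 219.6, 314.9 and 161.6 there, with an adjusted p of 0.0464 that was lost without any 1 of the 12 libraries and with the replicate number as a block. Cald1, the actin-binding caldesmon gene, was at 9731, 10075 and 13272 in sub and at 3631, 3903 and 5275 in high. Its log2 fold change of -1.37 passed (adjusted p 0.0374), a call lost without any 1 library of sub or high, without low 1 or without neg 1 (at most 0.682 over its alternatives). The median log2 fold change of the accessory list was -0.28 in low against neg and -0.07 in high against neg, where it was 0 and 0.13 over all tested genes.

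Of 21 listed non-muscle or other-tissue paralogues of the members 16 were tested. Of these, 5 were higher and 11 did not pass in low and in high against neg, and none passed as lower in any comparison. Over all genes 2.55% were higher in low against neg and 2.44% in high against neg. Sub against neg had 4 paralogues higher (1.04% of all genes were) and low against sub 2 (0.13% of all genes were). Cnn2, singled out after its values were seen, was lower on average in the bright gates, at 447.7, 437.8 and 583.4 in neg, 0, 45.9 and 0 in low and 257.0, 18.2 and 0 in high, and did not pass (adjusted p 0.234 and 0.473 against neg). Actb, the cytoplasmic beta-actin, was at 9583, 4866 and 8954 in neg, 16113, 11816 and 14642 in sub, 22621, 27494 and 28758 in low and 21954, 25299 and 27110 in high. The neg, sub and bright libraries did not overlap, and low was 3.37-fold above neg (adjusted p 1.26e-05). Actg1, the cytoplasmic gamma-actin, was 7.80-fold higher in low than in neg (adjusted p 3.75e-06), with 4376, 4088 and 1180 in neg and 25473, 24010 and 25752 in low. Both calls against neg, in low and in high, were lost only without the variance trend (adjusted p from 0.101 to 0.39). In low against sub the call of Actb was lost without any 1 library except neg 2, and that of Actg1 without any except neg 1 and neg 3 (highest adjusted p over all alternatives 0.789 and 0.7). In sub against neg Actb was lost without neg 2, sub 1, sub 3 or any library of low or high, and Actg1 without sub 1 or sub 2 (highest 0.772 and 0.68). Myl12a, a non-muscle relative of Myl9, was at 428.4, 0 and 159.4 in neg, 2478, 1586 and 2549 in low and 3715, 3481 and 4352 in high. It passed in low against neg (adjusted p 0.0398) and in high against neg (0.0178); each call was lost without any 1 high library, and the first also without neg 2, sub 1, sub 3 or any low library (highest 0.269 and 0.151).

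Myh14, a non-muscle myosin heavy chain of epithelia, was at 0.691, 1.22 and 0 in neg, 4573, 2009 and 3794 in sub, 8842, 9282 and 9846 in low and 6865, 6343 and 7363 in high. It was at least 1201-fold higher in sub, 3238-fold in low and 2381-fold in high than in neg (limma adjusted p 1.1e-07, 1.1e-08 and 2.22e-08), and passed in low and high against neg in all 24 alternatives; sub against neg was lost in a fit of only these 2 populations (0.108). Myh9, the widely expressed non-muscle heavy chain, was 2.11-fold higher in sub than in neg and 1.90-fold in low (adjusted p 9.19e-05 and 0.000246), calls lost without the variance trend and in DESeq2 on 10 libraries (highest 0.75 and 0.661).

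As shares, Myh11 made up 13.7%, 26.0% and 30.2% of the summed Myh11, Myh9, Myh10 and Myh14 counts in neg, 9.33%, 12.6% and 14.0% in sub, 1.17%, 0% and 1.53% in low and 0.626%, 0% and 0.851% in high. Neg and sub overlapped by 1 library (neg 1 below sub 3), and both stood above low and high. Acta2 made up 2.94%, 7.66% and 3.57% of the summed Acta2, Actb and Actg1 counts in neg, 1.29%, 13.0% and 1.18% in sub, and at most 0.0555% in low, with 0 in high. Sub 2 again stood apart from sub 1 and sub 3. These shares are within a library and do not depend on the scaling between libraries.

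**Figure D3:**
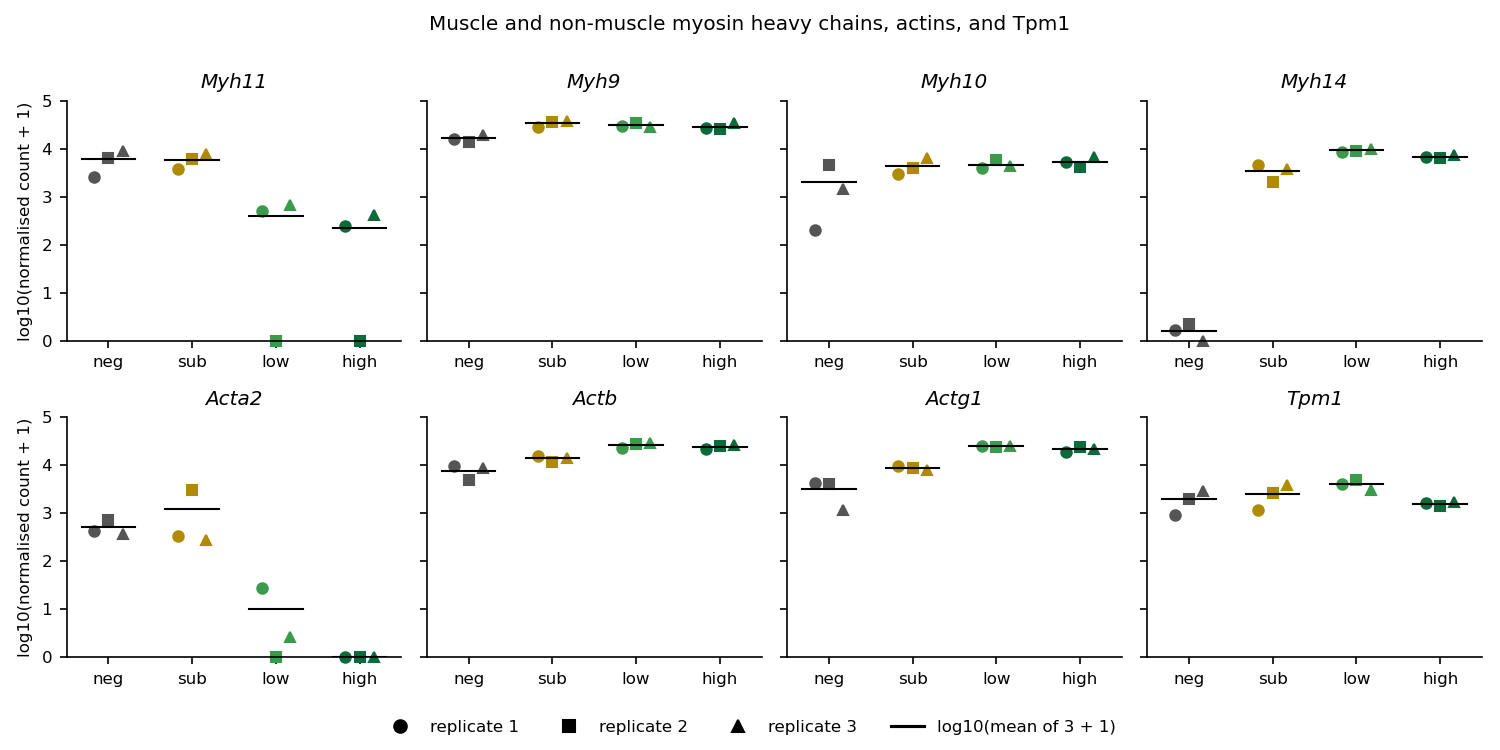
Log10(normalised count + 1) of the muscle genes Myh11 and Acta2, their non-muscle relatives and Tpm1, with 1 point per library, point shape for the replicate number and a line at the mean of the 3 libraries of a population. Myh11 and Acta2 are lower in all low and high libraries than in neg and sub, whereas Myh14 is at most 1.22 in neg and at least 2009 elsewhere, and Actb and Actg1 are higher in low and high than in neg.

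Summed over the 10 members, the libraries held 5317, 11519 and 16158 in neg, 7594, 15100 and 16262 in sub, 4687, 5773 and 3701 in low and 2025, 1779 and 2272 in high. Without Tpm1 the other 9 had a mean sum of 9032 ± 4416 for neg, 10390 ± 3458 for sub, 671.1 ± 60.0 for low and 416.7 ± 75.9 for high (SD, n = 3 each). The difference in low between these sums is Tpm1, which made up most of the counts there. No test was run on the sums.

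Markers of cell types that could carry smooth muscle transcripts ran beside these values. The list for vascular smooth muscle and pericytes (10 genes, 7 tested) summed to between 3169 and 8937 in neg, 7264 and 13403 in sub, 762.1 and 2198 in low and 904.5 and 1685 in high; Pdgfrb was lower in low and high against neg and in high against sub (adjusted p 0.0441, 0.0101 and 0.0196; the first lost without low 1, low 2 or any neg or sub library, the last without high 2, high 3 or any sub library, at most 0.143 and 0.179), and Higd1b and Cox4i2 were listed at 0 in all libraries. The low against neg call of Pdgfrb was also lost with the replicate number as a block. Rgs5, a pericyte marker of the same list, was singled out after its values were seen. It was at 362.7, 967.4 and 1157 in neg and at 1036, 34.0 and 1464 in low (limma adjusted p 0.728). Rgs5 made up most of the sum of the list in low 1 and low 3, and Abcc9 (728.1) did in low 2. Cspg4 was listed at 0 in neg and at 49.0, 0 and 29.6 in low. The stellate list (10 tested) summed to between 11579 and 20066 in neg, 14254 and 23938 in sub, 161.9 and 1224 in low and 205.0 and 1003 in high, with 4 genes lower in low against neg (Dcn, Des, Hgf and Reln; 2.15% of all genes were) and 4 in high against neg (Dcn, Des, Hgf and Pdgfra; 2.25% of all genes were). Reln in low was lost in 12 of 24 alternatives and Dcn and Des in high in 7 each. Hgf was lost in 2 of 24 in low and in 5 of 24 in high, and Dcn in low in 1. Des in low and Pdgfra in high held in all. The portal fibroblast list (10 tested) summed to between 5949 and 8593 in neg and between 4481 and 11817 in sub. In low its sum was between 87.9 and 495.3, and in high between 110.2 and 277.8. In low against neg 2 of its genes were lower (Eln and Fbln1; 2.15% of all genes were). In high against neg 4 were (Col15a1, Dpt, Eln and Fbln1; 2.25% of all genes were). Fbln1 held in all 24 alternatives of both, and Eln in low was lost in 13 of 23, the replicate block among them. In high Col15a1 was lost in 8 of 24, Dpt in 5 of 24 and Eln in 1 of 23. Like the sum of the 9 members without Tpm1, the sums of these 3 lists overlapped between neg and sub, and every neg and sub library stood above every low and high library. The stellate list includes Des and holds none of the 10 members, nor do the other lists.

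The remaining lists are given for comparison. The endothelial list (10 tested) summed to between 99774 and 144321 in neg and between 31440 and 36749 in sub, with no overlap, and to between 555.4 and 2011 in the bright gates; all 10 were lower in low against neg (2.15% of all genes were). Of these calls, Cdh5, Eng, Kdr, Pecam1 and Stab1 held in every alternative, and Lyve1 was lost in 12 of 24, Tek and Emcn in 9 each, Clec4g in 6 and Stab2 in 2 of 23. The biliary list (9 of 10 tested) summed to between 22.2 and 412.5 in neg, 19824 and 35892 in sub and 61733 and 90763 in low and high. In low against neg 7 of its genes were higher (2.55% of all genes were). Of these calls Cldn7 was lost in 6 of 24 alternatives, and the others held in all. The mesothelial list (7 of 10 tested), which includes the biliary gene Krt19, summed to between 2377 and 4174 in neg, 2101 and 5801 in sub, 6153 and 7419 in low and 1120 and 2967 in high. The hepatocyte list (10 tested) summed to between 628.6 and 1094 in neg and between 5912 and 7885 in sub. In low its sum was between 13988 and 21694, and in high between 18109 and 20949. In low against neg 3 of its genes were higher (Ahsg, Alb and Hnf4a; 2.55% of all genes were). The Hnf4a call was lost without any 1 low library, at most 0.0757 over its alternatives. That of Alb was lost in a limma fit of only low and neg (adjusted p 0.0823), and that of Ahsg held in all. The Kupffer and macrophage list (5 of 10 tested) summed to between 0 and 1526 over all libraries, the lymphocyte list (4 of 10 tested) to between 0 and 1108, and the Schwann and neural list (6 of 10 tested) to between 774.1 and 5294. Csf1r of the first and Mbp of the last were higher in low against neg (limma adjusted p 0.0162 and 0.0269; 2.55% of all genes were). They were also higher in high against neg (0.0189 and 0.0345; 2.44% of all genes were). Csf1r was lost in 3 and 4 of 24 alternatives, and Mbp in 8 and 7. The other tested genes of their lists did not pass in either comparison. The sub gate held biliary, hepatocyte, endothelial, stellate, portal fibroblast and some mural markers together. Of the mural list, Rgs5, Notch3, Pdgfrb, Mcam and Abcc9 were above 0 in every sub library. Kcnj8 was listed at 0 throughout sub, Cspg4 at 0, 0 and 76.8 and Rgs4 at 1.47, 0 and 1.99. The part of any of these cell types in the levels of the contractile genes was not tested.

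**Figure D4:**
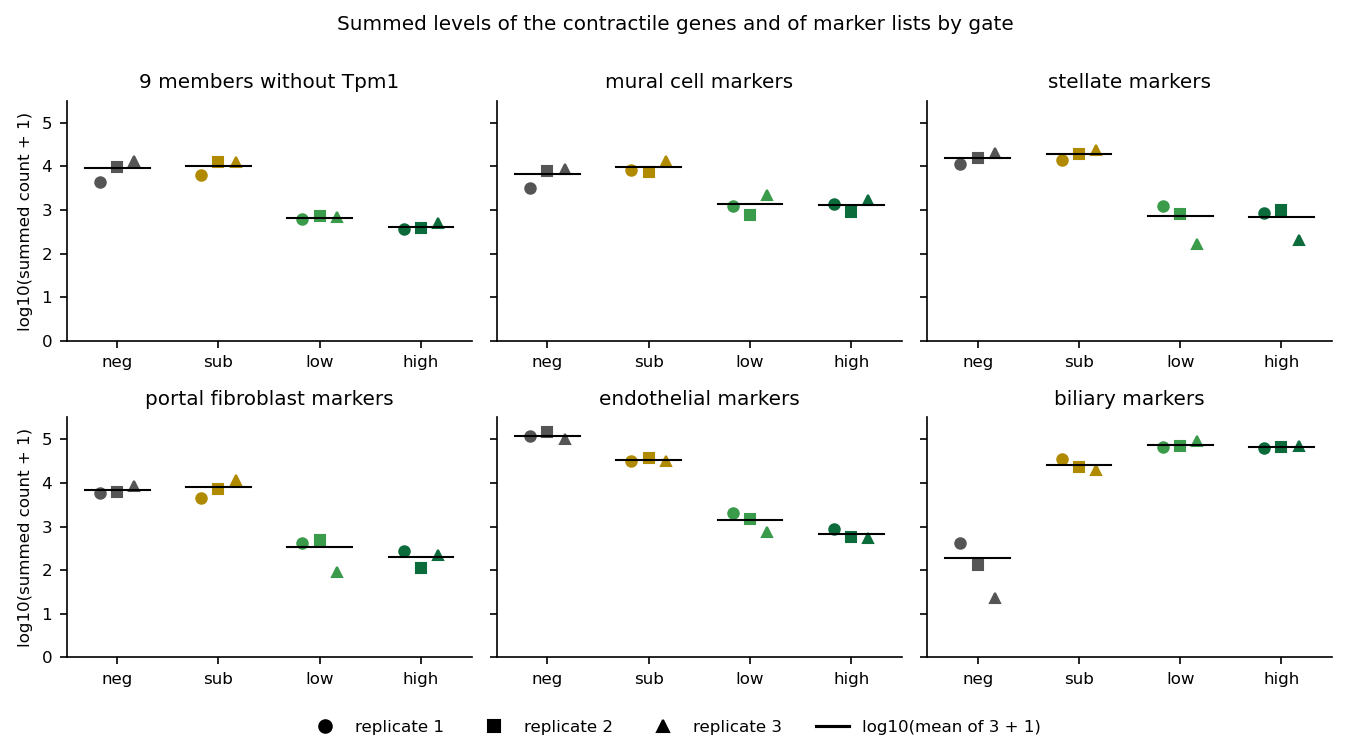
Log10(summed normalised count + 1) of the 9 members without Tpm1 and of 5 marker lists, with 1 point per library, point shape for the replicate number and a line at the mean of the 3 libraries of a population. The member sum lies between 4399 and 13193 in neg and sub and between 365.2 and 727.3 in low and high; the mural, stellate and portal fibroblast sums are also lower in the bright gates, and the biliary sum is higher.

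The genes whose pattern was most like the summed level of the 10 members were picked by Pearson's r of log2(value + 1) over the 12 libraries, among 9607 other genes with a mean of at least 100. They were Igfbp5 (r = 0.967), Letm1 (0.922), Ccdc80 (0.912), Pdgfra (0.909), Meg3 (0.907), Septin11 (0.903), Pam (0.901) and Mamdc2 (0.898). Igfbp5, which encodes a secreted insulin-like growth factor binding protein, had a mean of 9161 ± 8315 for neg, 7331 ± 4539 for sub, 1021 ± 342.8 for low and 379.1 ± 142.4 for high (SD, n = 3 each). Pdgfra, the receptor that marks fibroblasts and stellate cells, was at 2786 ± 1236 in neg, 3449 ± 1461 in sub and 228.7 ± 114.0 in low. These correlations are a description over libraries that fall into 4 populations and share their scaling. Among the members, r with the sum of the other 9 was 0.829 for Acta2, 0.804 for Synpo2, 0.684 for Lmod1, 0.608 for Tpm2, 0.445 for Tagln, 0.428 for Myh11, 0.360 for Actg2, 0.144 for Myl9, 0.00268 for Tpm1 and -0.481 for Cnn1. These r values are not comparable between members, since Myh11 and Tpm1 carry most of the sum of the others and each leaves out its own counts.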

How the data were processed

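The deposited values are 1 table of the authors' normalised counts, used here as a signal for each gene symbol in each library. Per the submitters' processing notes, Salmon, DESeq2 1.26.0 and mm10 were used; the annotation, strand setting and filters are not given in the sources used here. Per the labels' protocols, DNase treatment lasted 30 min and libraries were made with a stranded random-primed total RNA kit for small inputs. In each library 100% of values above 0 were whole multiples of the library's smallest value (0.691 to 1.22, tolerance 0.01 reads), so reads were recovered by division. Totals were 8775387 to 15535588 reads. Populations and replicate numbers came from sample titles.

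Values were tested as log2(normalised count + 1) with limma 3.58.1 in R 4.3.3 (lmFit, eBayes with a variance trend), with all 12 libraries in the fit and population alone as a term, over 16128 genes with a mean of at least 10, two-sided, with Benjamini-Hochberg adjustment at 0.05. Where no tool is named beside an adjusted p, it is from limma. On this scale fold changes are understated where both populations are low, and where single libraries are at 0 they can exceed, or differ in sign from, the ratio of means. Folds are ratios of population means. Where a population held at most 3 reads in every library, its mean was replaced by 3 reads per library. If the zeros are counts, such a fold is a lower bound with regard to counting error only, since the labels name no molecular identifiers. It does not cover the spread between libraries. Gene positions, exon lengths and shared 31-base words came from GENCODE M21 (52258 of the 54227 symbols matched).

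The alternatives tried were no filter or a minimum mean of 100, a pseudocount of 0.5 or 5, libraries scaled to equal totals, quantile normalisation, no variance trend, a block for the replicate number, fits restricted to the 2 populations in question, leaving out each library, and edgeR 4.0.16 and DESeq2 1.42.0 on recovered reads of 10 libraries. Sub 3 and high 2 were left out of the count tests by choice, because 1 read is worth 0.997 and 1.01 there; their values were whole multiples too. A limma fit of those 10 libraries, inexact CArG boxes, the joining of populations and Acta2 and per-kb levels without sub 2 were added after seeing the data. The fits were run on simulated negative binomial counts with known changes. That simulation did not model the zeros in single libraries that are common here, so it does not show how the fits handle them. The members, the other gene lists and the tests were chosen with earlier results of these data known. Beside the members, Sox9, called genes of the other lists (at most 4 per list and comparison, by size) and the 8 genes most correlated with the member sum are named.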

Additional observations from a re-analysis of the deposited data

How the results depend on the processing

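Of the member values recomputed under the alternatives, 1506 kept their side of the threshold and, outside the F test, their direction. Another 48 passed where they had not, 42 no longer passed and 33 changed sign; none of the 33 was past the threshold in either fit. Only 5 of the 60 pairwise member tests and 3 of the 10 F tests had passed. The 42 losses all come from these few calls, so the 1506 do not measure how stable the calls were. Where no cause is stated, the cause was not tested.

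DESeq2 on 10 libraries called 1652 genes in sub against neg, 1501 in low against sub, 678 in high against low, 1855 in low against neg, 1852 in high against neg and 1506 in high against sub, and 2, 5, 1, 4, 4 and 6 members. On the same libraries edgeR called 74 genes in high against low, 269 in high against sub with 3 members and 271 in low against sub with 2. Limma on the same libraries called 398 genes in the F test, 383 in high against neg with 1 member, 29 in high against sub, 12 in low against sub with 0 members and 111 in sub against neg; it has fewer samples. Signs changed in DESeq2 for high against neg of Cnn1 (-0.46), low against neg of Tpm2 (0.36) and sub against neg of Lmod1 (-0.12), Myh11 (-0.28) and Tpm1 (-0.01). In edgeR they changed for Cnn1 (-0.42), Tpm2 (0.39), Lmod1 (-0.08) and Myh11 (-0.24) in the same comparisons. In limma on 10 libraries they changed for high against low of Cnn1 (1.73) and Myh11 (2.20) and sub against neg of Myh11 (-0.15).

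Fits of only the 2 populations compared, which have fewer samples, called 6 genes in high against low, 64 in high against sub, 302 in low against neg, 39 in low against sub and 38 in sub against neg, and 0 members in low against neg and in low against sub. Without the variance trend 22 genes were called in high against low and 195 in low against sub, with 2 members in high against sub and 3 in low against sub. A mean of at least 100 gave 2 members in each of these, and a pseudocount of 5 gave 1 in high against sub. No filter gave 1 gene in high against low. No member was called in low against sub (0) with no filter, a pseudocount of 0.5 or quantile normalisation. Quantile normalisation changed the sign of Cnn1 in high against low (0.32) and Tpm1 in high against neg (0.04).

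Replicate numbers are shared by the populations, and same-numbered libraries share a description suffix of unstated meaning. Correlations of same-numbered deviations ran from -0.0161 to 0.0266 over 18 pairs, with 0 over 0.1, and 10 of 12 libraries correlated best with their own number, a hint from the data and not the design; since no label says what the suffix marks, the numbers were not taken to pair samples. With the replicate block 1 gene was called in high against low and 0 members in low against sub, and Myh11 passed in low against neg (adjusted p 0.0436), high against neg (0.0272) and the F test (0.0163); the range of the last over all alternatives was 2.82e-08 to 0.314.

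Leaving out each library in turn gave 0 to 4 genes in high against low, 424 to 773 in high against neg, 10 to 126 in low against sub, 46 to 176 in high against sub and 445 to 763 in low against neg. Members called ran from 0 to 3 in high against neg, 0 to 1 in high against sub, 1 to 2 in low against neg, 0 to 1 in low against sub and 0 to 1 in sub against neg. In high against low, log2 fold changes ran from -2.96 to 1.73 for Cnn1, -3.64 to 2.20 for Myh11 and -2.84 to 1.97 for Tpm2. In high against neg they ran from -2.79 to 2.43 for Tagln and -0.61 to 0.24 for Tpm1. In sub against neg they ran from -0.14 to 1.31 for Lmod1, -0.42 to 0.46 for Myh11, -0.07 to 0.88 for Tpm1, -1.01 to 0.08 for Synpo2 and -0.69 to 1.06 for Acta2. If a zero is a count, depth limits that library to 3 reads with regard to counting error only. This limit does not hold for a failed estimate. With 3 libraries a population, zeros among them, the median SE was 2.28 for the members.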

Other observations

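The transcriptional side of the contractile programme was read from genes singled out after their values were seen. Myocd, the coactivator that drives smooth muscle genes together with SRF, was listed at 0 in all 12 libraries, as was Kcnmb1, the smooth muscle subunit that partners Kcnma1. Srf itself was at 209.3, 0 and 1805 in neg, 1719, 973.2 and 2858 in sub, 1616, 3297 and 2452 in low and 3384, 4262 and 2557 in high, so it was present in the bright gates in which Acta2 was listed at 26.7 or less, Synpo2 at 0, and Lmod1 at 0 except in high 2. Mrtfb, another SRF coactivator, was above 0 in every library, at 2860, 3929 and 2316 in neg and at 1259, 1762 and 1574 in high. Its relative Mrtfa was at 0, 0 and 84.0 in neg and at 540.8, 144.5 and 448.4 in high. Mylk, the kinase that phosphorylates the myosin light chain, was at 1806, 1382 and 3415 in neg, 2497, 1803 and 3744 in sub, 1248, 1067 and 1271 in low and 933.7, 1948 and 1150 in high. Srf, Mrtfa, Mrtfb and Mylk passed in no limma comparison with all libraries, and Myocd and Kcnmb1 were below the filter and not tested.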
